A study of Mus musculus with 9 samples.

Results

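Marginal zone B cells, plasma cells, CD4 T cells and CD8 T cells of mouse spleen were compared between mice with 2 copies and mice with 1 copy of the R594C change in IRE1. The cells were chosen by their own transcripts, from raw UMI counts (a UMI is a tag that marks 1 original molecule). A marginal zone B barcode held at least 3 UMIs of Cd79a and Cd79b together, at least 2 of Cr2 and 0 of Fcer2a. A plasma barcode held at least 5 UMIs of Xbp1 and 20 of Jchain. A T cell barcode held at least 2 UMIs of Cd3d, Cd3e and Cd3g together, with at least 1 of Cd4 for CD4 T and 2 of Cd8a and Cd8b1 together for CD8 T. The 4 gates held 8142 barcodes of the 31762 R594C barcodes assigned to 1 replicate, and all 3 genotypes had 45766 such barcodes. A barcode was counted once in each gate it passed.

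The study asked whether the altered IRE1 changes splenic immune cells, and its title concerns Xbp1 splicing and B cell tolerance. Total splenocytes sorted with DAPI, a dye that enters dead cells, were profiled by CITE-seq, in which RNA and DNA-tagged antibodies are counted per cell. The groups were heterozygous R594C/+ (4 replicates), homozygous R594C/R594C (2 replicates) and wild type (WT, 4 replicates), and the replicates of a genotype were told apart by hashtag antibodies against CD45 and MHC class I. The labels give R594C as the genotype of the animals, with no Cre driver or treatment, and they give no age or strain. Each genotype was a droplet capture with RNA, antibody and hashtag libraries of its own, and these cannot be told apart from genotype. The same holds for any difference in staining between the captures. The labels do not say that replicates were separate animals, so a p-value here covers the spread between replicates only, which may in part be technical. All 4 R594C/+ replicates expressed female genes, while R594C/R594C had 1 replicate that expressed male genes and 1 that expressed female genes. In WT, replicate 2 expressed female genes and replicates 1, 3 and 4 male genes. Replicates of unlike expressed sex were not splits of 1 animal, while those of the same expressed sex may have been.

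IRE1, encoded by Ern1, is a sensor in the membrane of the endoplasmic reticulum (ER). When unfolded proteins build up it cuts the Xbp1 messenger RNA, and the rejoined message encodes XBP1s, a transcription factor for genes of protein import, folding, glycosylation, disposal and transport out of the ER. Plasma cells, which secrete antibody at a high rate, are known for their reliance on this branch, and an overactive IRE1 can also degrade other messages at the ER, a process called RIDD.

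A replicate held 87 to 139 plasma barcodes, 230 to 486 marginal zone B barcodes, 205 to 600 CD4 T barcodes and 115 to 992 CD8 T barcodes in the R594C groups. Summed RNA counts per replicate ran from 1653887 to 2831073 UMIs in plasma cells, from 1021832 to 2331099 in marginal zone B cells, from 799401 to 2662629 in CD4 T cells and from 636954 to 4876696 in CD8 T cells. The R594C/+ and R594C/R594C captures shared 89 barcode sequences. The gates were checked by genes and antibody tags that they did not use. The plasma gate had a mean of 151 CPM (counts scaled to a common library size) of Sdc1 in R594C/+ and 132 in R594C/R594C, and 252 and 223 CPM of Derl3, whereas Mzb1, another plasma cell marker, was read at only 11.1 and 6.76 CPM. The marginal zone gate had 66.5 and 55.6 CPM of Cd1d1, against 16.3 and 18.1 CPM in the CD4 T gate. S1pr3, another marginal zone marker, was at 70.1 and 44.0 CPM. Cd9, also a listed marker, did not set the gate apart, at 106.5 and 100.6 CPM against 102.4 and 86.05 CPM in the CD4 T gate. The median marginal zone cell held 20 and 13 UMIs of the CD1d tag, against 2 and 3 in barcodes outside the gate. The median CD4 gate cell held 61 and 63 UMIs of the CD4 tag, and the median CD8 gate cell 20 and 24 of the CD8a tag. The CD138 and CD23 tags had a median of 0 UMIs even in plasma and follicular B cells and checked nothing. Because counts were summed over cells, fewer strongly expressing cells and less RNA per cell cannot be told apart.

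In plasma cells, genes of the secretory pathway that XBP1s is known to drive were lower with 2 copies of R594C than with 1. Of 8212 genes tested, 40 differed (0.487%), of which 33 fell (0.402%) and 7 rose (0.0852%), in edgeR's quasi-likelihood test at an adjusted p of 0.05. Over all genes the 40 calls became 15 and 10 without R594C/R594C replicates 1 and 2, and 16, 14 and 24 without R594C/+ replicates 1, 2 and 3. Of the 86 genes on 5 lists of XBP1s targets, 84 were tested, 81 had a negative fold, 14 fell and 0 rose. The median log2 fold over the 84 was -0.35, against 0.00 over all genes tested and -0.07 for the same genes in follicular B cells. Both R594C/R594C replicates lay below all 4 R594C/+ replicates for 49 of them, or 58.3%, against 11.8% of all genes tested. The lists were chosen with earlier results of these data known, so they are not independent evidence of a direction. The median mitochondrial share of a plasma barcode's UMIs moved too, at 0.552%, 0.544%, 0.553% and 0.624% in R594C/+ and 0.654% and 0.747% in R594C/R594C, without overlap. Its part in the result was not tested.

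The sensor itself and its best known substrate did not pass the test. Ern1 was at 24.5, 21.7, 27.8 and 20.9 CPM in R594C/+ plasma cells and at 24.5 and 25.7 CPM in R594C/R594C, a log2 fold of 0.09 ± 0.26 (SE, adjusted p = 0.942, edgeR). The R594C allele cannot be seen in these counts, so Ern1 does not check the genotype labels. Xbp1, counted over all its forms, was part of the gate. In cells gated without it, Xbp1 stood at 1139, 1113, 1302 and 1288 CPM in R594C/+ and at 1016 and 1465 CPM in R594C/R594C, a log2 fold of 0.04 (adjusted p = 0.967, edgeR), and the groups overlapped. Spliced and unspliced Xbp1 were not analysed here.

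The promoters of 4 of the genes that fell are shown because each holds a sequence that XBP1 or ATF6, the other ER stress factor of this kind, is known to bind. They are read 5′ to 3′ on the strand of the gene from RefSeq (GRCm38.p6), within a window from 250 bases before to 50 bases after the start site, and capitals mark the match.
Dnajb9 (chr12:44210141-44210206, minus strand, core motif): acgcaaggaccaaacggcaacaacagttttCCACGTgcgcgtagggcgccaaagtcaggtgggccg
Serp1 (chr3:58525893-58525958, minus strand, core motif): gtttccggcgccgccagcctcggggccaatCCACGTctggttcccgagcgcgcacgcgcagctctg
Dnajc3 (chr14:118937797-118937875, plus strand, ER stress response element): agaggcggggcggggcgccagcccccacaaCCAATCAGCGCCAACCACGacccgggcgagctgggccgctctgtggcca
Herpud1 (chr8:94386347-94386417, plus strand, ER stress response element II): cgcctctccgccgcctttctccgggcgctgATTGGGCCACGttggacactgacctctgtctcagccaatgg
The core motif, CCACGT on either strand, was present in 12 of the 27 genes that fell and had a promoter in the table (44.4%). It was present in 14.1% of the 6381 genes tested in plasma cells that had a promoter there, and in 9.4% of all 27025. The ER stress response element was present in 1 of the 27 (3.7%), against 0.188% of those tested genes and 0.137% of all promoters. The ER stress response element II was present in 2 of the 27 (7.41%), against 0.125% and 0.0444%, and overlaps the core motif when a T follows it, as in Herpud1. A match describes the letters of the window and is not a bound site.

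Among folding factors 4 genes fell. Dnajb9, an ER co-chaperone and a classic XBP1s target, was at 251, 249, 251 and 249 CPM in the 4 R594C/+ replicates and at 133 and 145 CPM in R594C/R594C. The groups did not overlap, and both R594C/R594C values also lay below the 4 WT values of 176 to 242 CPM. The log2 fold was -0.84 ± 0.12 (SE, adjusted p = 0.0013, edgeR), and the same test against WT, which shares the R594C/R594C replicates, gave -0.59 (adjusted p = 0.0259). Fkbp11, a proline isomerase of the ER, was at 207, 169, 139 and 190.3 CPM against 83.5 and 66.2 CPM, a log2 fold of -1.24 ± 0.20 (adjusted p = 0.0172, edgeR). Again no value overlapped, and the fold against WT was -1.33. Fkbp2, of the same family, went from a mean of 439 ± 17.3 (SD, n = 4) to 285 ± 17.0 CPM (SD, n = 2), and Dnajc3, an ER co-chaperone also called P58IPK, from 393 ± 44.4 to 259 ± 25.8 CPM. Over the list of chaperones and disulfide isomerases, 18 of 19 tested genes had a negative fold and 4 fell, with a median of -0.36. Hspa5, the abundant chaperone BiP, did not pass the test, at 2152, 1568, 1556 and 1383 CPM against 1471 and 1127 CPM (log2 fold -0.36 ± 0.22, SE, unadjusted p = 0.134, edgeR). In cells gated without Xbp1 its R594C/R594C values, 1426 and 1183 CPM, lay within the WT range of 1060 to 1577 CPM. For most other secretory genes WT is not given here, so a level below R594C/+ is not by itself a level below WT.

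**Figure D1:**
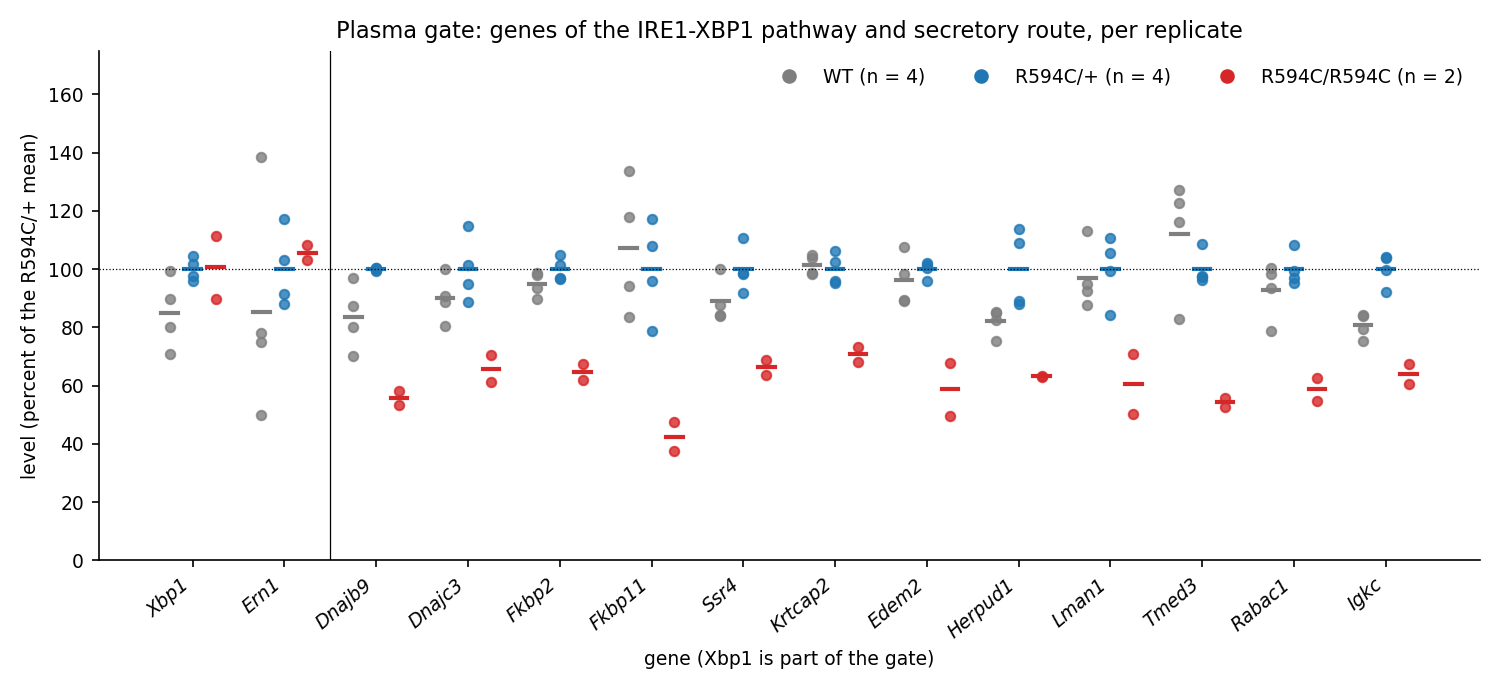
Level of 14 genes in plasma cells of each replicate (points, coloured by genotype), as a percentage of the mean of the 4 R594C/+ replicates; bars are genotype means and the dotted line is the R594C/+ mean. The R594C/R594C points of Dnajb9 (133 and 145 CPM) lie below every R594C/+ point (249 to 251 CPM), while the points of Ern1 and Xbp1 overlap.

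Import into the ER and glycosylation followed the same direction. Ssr4, a subunit of the complex beside the translocation channel, was at 2181, 1810, 1945 and 1936 CPM in R594C/+ and at 1256 and 1352 CPM in R594C/R594C, with no overlap. Its log2 fold was -0.59 ± 0.09 (SE, adjusted p = 0.00223, edgeR). Sec11c, a catalytic subunit of the signal peptidase, also fell, from a mean of 1103 to 836 CPM. All 19 genes tested on the translocation list had a negative fold, 2 of them fell and the median was -0.38. Among 12 genes of N-glycosylation, 12 had a negative fold (median -0.32), and Krtcap2 and Dad1, both parts of the oligosaccharyltransferase, fell. Krtcap2 was at 565, 547, 511 and 507 CPM against 391 and 364 CPM (log2 fold -0.50 ± 0.09, adjusted p = 0.0108, edgeR). Mgat2, a Golgi enzyme that builds complex N-glycans, fell from 81.1 to 48.1 CPM.

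Disposal and transport genes fell as well. Edem2, which trims mannose on misfolded glycoproteins, was at 274, 272, 269 and 257 CPM against 133 and 182 CPM (log2 fold -0.77 ± 0.12, adjusted p = 0.00223, edgeR). Herpud1, Derl1 and Selenos, which belong to the machinery that moves misfolded proteins out of the ER, fell with log2 folds of -0.66, -0.57 and -0.45. Over this list 12 of 13 genes had a negative fold (median -0.36). Lman1, a cargo receptor for glycoproteins leaving the ER, was at 274, 287, 258 and 219 CPM against 184 and 131 CPM, a log2 fold of -0.72 ± 0.14 (adjusted p = 0.0203, edgeR). Tmed10, a p24 cargo receptor, fell with a log2 fold of -0.47, and 20 of 21 genes of ER to Golgi transport had a negative fold (median -0.34). Tmed3, a relative of Tmed10 outside the lists, fell from 85.4, 85.1, 94.9 and 84.1 CPM to 46.1 and 48.8 CPM.

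Other parts of the stress response had 1 called gene in all. Of the 10 tested genes of the UPR sensor list 9 had a negative fold (median -0.17), 4 lay below all R594C/+ replicates, and Dnajb9, which is on that list too, was the 1 called. The 13 tested targets of ATF4 and CHOP, factors of the PERK branch, had 7 negative folds, 0 calls and a median of -0.06. Slc3a2, an amino acid transporter subunit on that list, was at 634, 618, 620 and 419 CPM against 318 and 241 CPM, but missed the threshold (log2 fold -1.04, adjusted p = 0.309, edgeR). The 12 tested RIDD substrates had 6 negative and 6 positive folds, 0 calls and a median of -0.04. Of 12 heat shock genes, which respond to misfolding in the cytosol, all 12 had a negative fold (median -0.35), 5 lay below all R594C/+ replicates and 0 were called. Among all genes tested in plasma cells, 11.8% lay below all R594C/+ replicates.

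**Figure D2:**
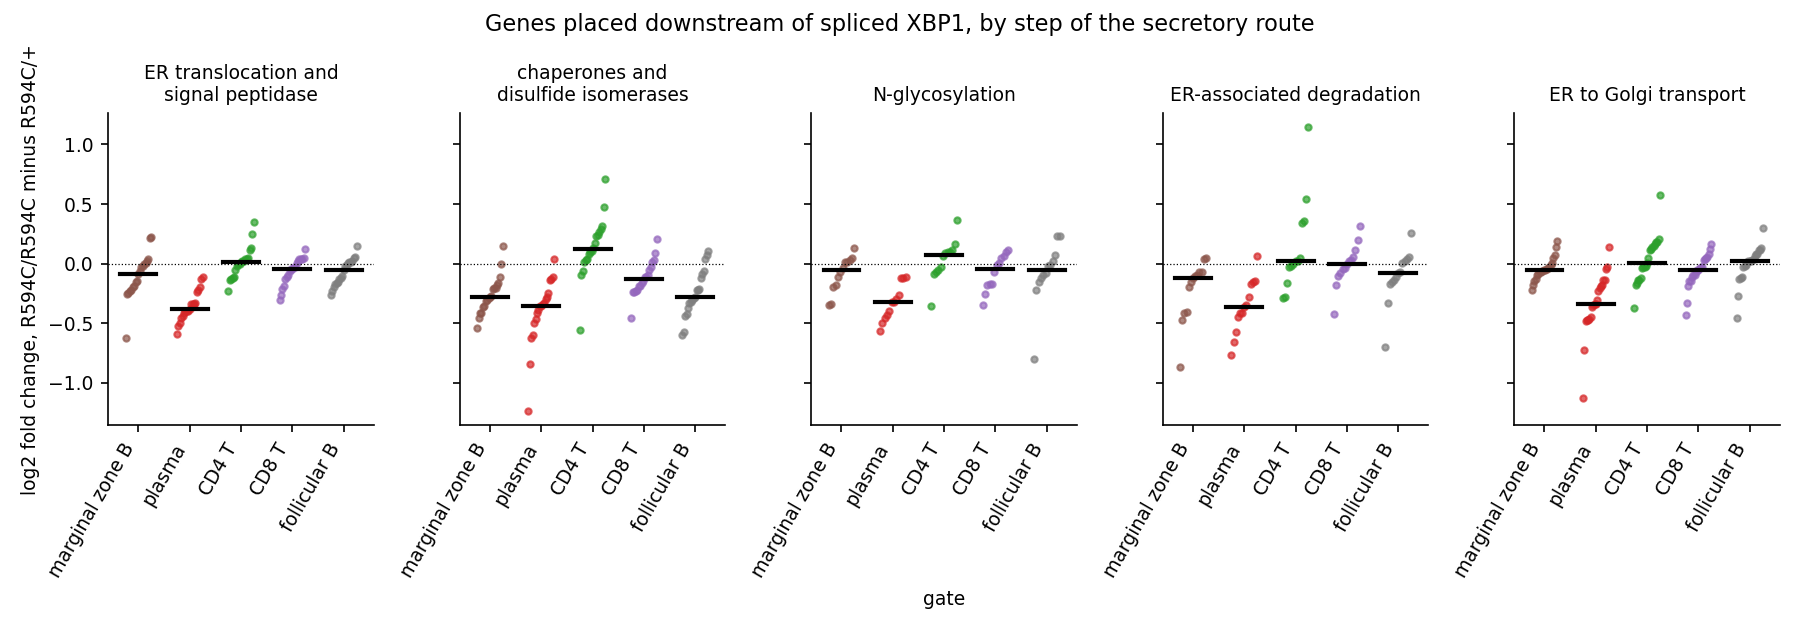
Log2 fold, R594C/R594C minus R594C/+, of each tested gene of the 5 lists of XBP1s targets (points) in the 4 gates and in follicular B cells; black bars are medians and the line at 0 marks no difference. In plasma cells 81 of 84 points lie below 0, in CD4 T cells 32 of 83.

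Immunoglobulin transcripts, the main product of plasma cells, were a smaller share of their RNA with 2 copies. They made up 58.3% to 62.2% of UMIs in R594C/+, 52.5% and 55.2% in R594C/R594C and 58.0% to 58.9% in WT. Igkc, the kappa light chain constant gene, was at 473100, 453200, 473900 and 419600 CPM in R594C/+ and at 274900 and 306300 CPM in R594C/R594C. WT, at 342600 to 384000 CPM, lay between the R594C groups without overlapping either. The log2 fold was -0.65 ± 0.06 (SE, adjusted p = 0.000101, edgeR), and -0.34 against WT (adjusted p = 0.0214). Of 21 alternatives run, the call was lost only in cells gated without Xbp1 (adjusted p = 0.0568, edgeR). The size of the fold depended on the setting and ran from -0.715 to -0.335. Ighm, the IgM heavy chain, varied more than it differed, from 68540 to 122400 CPM in R594C/+ and at 101600 and 54460 CPM in R594C/R594C (adjusted p = 0.782). Jchain was part of the gate.

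Because Igkc is so abundant, the scaling of the counts matters. The trimmed mean (TMM) scaling used here placed the median gene of plasma cells at a log2 fold of 0.00, while scaling to the library total placed it at 0.31. With the library total 51 of the 84 genes of the XBP1s lists had a negative fold and their median was -0.03, which is -0.34 relative to the median gene, and 3 were called lower. With immunoglobulin genes left out of the counts the median was -0.34 and 16 were called. The number of these genes called fell to 3 when either R594C/R594C replicate was left out, to 6 without R594C/+ replicate 1 or 2, and to 8 without R594C/+ replicate 3. It was 5 with exclusive gates, which left out barcodes in more than 1 gate and plasma barcodes with at least 2 UMIs of Cd3d, Cd3e and Cd3g together. The median over the lists was between -0.25 and -0.43 in all settings other than the library total. Dnajb9 passed in all 23 alternatives run (highest adjusted p 0.0365). Edem2 passed in 22, losing its call without R594C/R594C replicate 1 (adjusted p = 0.139), and Ssr4 in 21, losing it without that replicate and with the library total. Fkbp11 passed in 16 and lost its call without R594C/+ replicate 2 or either R594C/R594C replicate. Lman1 passed in 16 and lost it without R594C/+ replicate 1, 2 or 3 or R594C/R594C replicate 2, and Krtcap2 passed in 15 and lost it without R594C/+ replicate 1 or 2 or either R594C/R594C replicate. Tmed3 passed in 20, losing its call without either R594C/R594C replicate.

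Genes outside the secretory lists also fell in plasma cells. Isg20, an exonuclease induced by interferon, was at 175.2, 166, 172 and 132 CPM against 82.0 and 76.6 CPM, a log2 fold of -1.02 ± 0.15 (SE, adjusted p = 0.00167, edgeR). It passed in 20 of 23 alternatives and lost its call without R594C/R594C replicate 2. Rabac1, a membrane protein of the Golgi that binds Rab GTPases, was at 322, 315, 352 and 309.6 CPM against 178 and 204 CPM (log2 fold -0.77, adjusted p = 0.00167). For both genes the groups stood apart. Zbp1, a sensor of nucleic acids, and Bst2, which tethers virus particles, were the 2 called of 10 tested genes of the type I interferon list (log2 folds -0.71 and -0.55, median of the list -0.29). Zbp1 passed in 12 and Bst2 in 10 of the 23 alternatives, and both lost their calls without either R594C/R594C replicate and without R594C/+ replicate 1, 2 or 4, Bst2 also without 3. Oosp1 (-0.78), Atat1 (-0.95) and Nbea (-1.68) completed the genes named by rule. All of them lost their calls without R594C/R594C replicate 1, Atat1 and Nbea also without replicate 2 and without R594C/+ replicates 1, 3 or 4, and Atat1 without R594C/+ replicate 2. The remaining genes that fell, named like Rabac1 and Mgat2 and the called list members given by mean or fold alone after their values were seen, were Serp1, Ckap4, Prdx4, Ubxn4, Cacna1s, Saraf, Spint2, Rps27l and Malat1, with log2 folds between -0.70 (Cacna1s) and -0.35 (Malat1).

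Besides a V segment, 6 genes rose in plasma cells, among them regulators of B cells and of cell division. Bach2, a repressor that holds B cells back from becoming plasma cells, was at 3.77, 5.12, 4.07 and 9.62 CPM in R594C/+ and at 20.2 and 13.5 CPM in R594C/R594C. The groups did not overlap, but WT, at 10.3 to 19.4 CPM, covered the R594C/R594C range in part. Its log2 fold was 1.495 ± 0.327 (SE, adjusted p = 0.0371, edgeR), and 0.11 against WT. Mybl1, a transcription factor of the MYB family, was at 2.51 to 5.86 CPM against 14.9 and 12.6 CPM (log2 fold 1.73, adjusted p = 0.0246), with WT at 8.04 to 17.8 CPM. S1pr1, the receptor by which lymphocytes leave tissues, was at 7.54, 7.88, 9.49 and 12.6 CPM against 24.0 and 23.5 CPM (log2 fold 1.32, adjusted p = 0.0148). Ncapg2, a condensin subunit, Ripor2, and Sfn, a 14-3-3 protein, rose with log2 folds of 1.26, 0.96 and 0.84. All 6 lost their calls without R594C/R594C replicate 2, and all but Ripor2 without replicate 1. Leaving out R594C/+ replicates also ended calls: each of 1, 2 and 3 for Bach2, Mybl1 and Ripor2, each of 1 and 2 for S1pr1, 3 for Ncapg2, and each of the 4 for Sfn.

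The lists around these genes had mostly positive folds and few calls. Of 14 B cell identity genes 11 had a positive fold, 1 rose (Bach2) and the median was 0.36. Of 19 proliferation genes, all 19 had a positive fold (median 0.62), both R594C/R594C replicates lay above all R594C/+ replicates for 5 (10.0% of all genes tested did), and 0 were called. Ccnb2, a cyclin of mitosis, came closest at 8.16, 12.6, 9.49 and 9.62 CPM against 27.3 and 15.7 CPM (adjusted p = 0.0562, edgeR). The same list had a median of -0.13 for R594C/R594C minus WT and -0.73 for R594C/+ minus WT, so the R594C/+ cells were the low group. The plasma cell programme had 11 negative folds of 18 and 1 call, Edem2, with a median of -0.07. Transcripts of T cells had positive folds beside these genes: 9 of 11 T cell markers had a positive fold (median 0.97, 0 called), and their summed level was 40.7 to 103 CPM in R594C/+, 142 and 143 CPM in R594C/R594C and 68.1 to 131 CPM in WT. Neutrophil markers summed to 54.8 to 1739 CPM in R594C/+ and 14.4 and 15.2 CPM in R594C/R594C. Their part in the results was not tested.

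The difference between 2 copies and 1 copy was itself compared with follicular B cells of the same replicates, as an interaction in edgeR with each replicate as a block. For 5 of 10289 genes (0.0486%) the plasma cell difference departed from the follicular one. Dnajb9 departed by -0.89 ± 0.16 (SE, adjusted p = 0.0147), with a log2 fold of 0.04 in follicular B cells. Igkc departed by -0.47 (adjusted p = 0.0147) and Rabac1 by -0.79 (adjusted p = 0.0224). Edem2, Fkbp11, Ssr4 and Lman1, which fell in plasma cells, did not pass this test (adjusted p = 0.31, 0.771, 0.175 and 0.331). Without R594C/+ replicate 1 the test called 0 genes, without R594C/R594C replicate 1 it called 3, none of them among the 5, and without R594C/R594C replicate 2 it called 3, of which 2 were among the 5. In marginal zone B, CD4 T and CD8 T cells 0 genes departed from follicular B cells in edgeR's test. Of 10093, 10326 and 10760 genes tested, 350, 498 and 407 had an unadjusted p under 0.05. Chance alone would give a share near 0.05.

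Marginal zone B cells, the innate-like B cells at the border of the splenic follicle, had 6 genes that differed (0.0654%) of 9171 tested, 5 that fell (0.0545%) and 1 that rose (0.0109%). The 6 calls became 1 without R594C/R594C replicate 1 and 13 without replicate 2. They were led by IgG heavy chain constant genes. Ighg2c was at 62.3, 58.1, 68.4 and 60.8 CPM in R594C/+ and at 4.67 and 8.35 CPM in R594C/R594C, a log2 fold of -3.25 ± 0.35 (SE, adjusted p = 0.00167, edgeR). Ighg2b was at 64.1, 67.5, 82.3 and 79.2 CPM against 16.6 and 26.4 CPM (log2 fold -1.76 ± 0.20, adjusted p = 3.04e-05), and passed in all 20 alternatives run. For both genes the R594C/R594C values lay below all R594C/+ values and below WT, at 28.4 to 73.5 CPM for Ighg2c and 48.1 to 78.4 CPM for Ighg2b. Without R594C/R594C replicate 1, Ighg2c lost its call (adjusted p = 0.0824).

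The other genes named in marginal zone B cells had separate roles. Il9r, the interleukin 9 receptor, was at 73.6, 73.0, 50.6 and 59.0 CPM against 20.8 and 34.7 CPM, a log2 fold of -1.22 ± 0.19 (SE, adjusted p = 0.00138, edgeR), and lost its call without R594C/R594C replicate 1 (adjusted p = 0.356). The mitochondrial gene mt-Atp6 rose, from 84.8, 65.2, 66.5 and 95.8 CPM to 139 and 113 CPM (log2 fold 0.67, adjusted p = 0.0457), and lost its call in 9 of 20 alternatives, among them those without each of R594C/+ replicates 1, 2 and 3 and R594C/R594C replicate 1. A predicted gene also fell.

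The XBP1s lists were lower in marginal zone B cells by a small amount, with 0 calls in edgeR among 83 tested genes. Of these, 65 had a negative fold (78.3%, against 50.6% of all genes tested), the median was -0.11, and 19 had both R594C/R594C replicates below all R594C/+ replicates (22.9%, against 7.15% of all genes tested). Chaperones stood lowest, with 18 of 19 folds negative, 9 below all R594C/+ replicates and a median of -0.28. Pdia4, a disulfide isomerase, was at 237, 269, 234 and 229.6 CPM against 191 and 188 CPM (log2 fold -0.35, adjusted p = 0.359, edgeR). Hspa5 was at 782, 839, 785 and 755 CPM against 559 and 724 CPM (adjusted p = 0.677). Neither overlapped between the groups, and neither passed the test. Xbp1, which the marginal zone gate did not use, had a log2 fold of 0.04 ± 0.31 (SE, adjusted p = 0.997), and Ern1 was too low to be tested. The marginal zone programme had 12 negative folds of 17 (median -0.18, 0 called), mitochondrially encoded genes 10 positive of 11 (median 0.32, 1 called, 8 above all R594C/+ replicates against 7.62% of all genes tested) and cholesterol synthesis 13 positive of 15 (median 0.29, 0 called). T cell markers summed to 153 to 335 CPM in R594C/+ and 300.0 to 401 CPM in R594C/R594C, with 11 of 11 folds positive, and their part was not tested. The median mitochondrial share of a barcode's UMIs was 1.59% to 2.24% in R594C/+ and 2.44% and 2.28% in R594C/R594C.

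**Figure D3:**
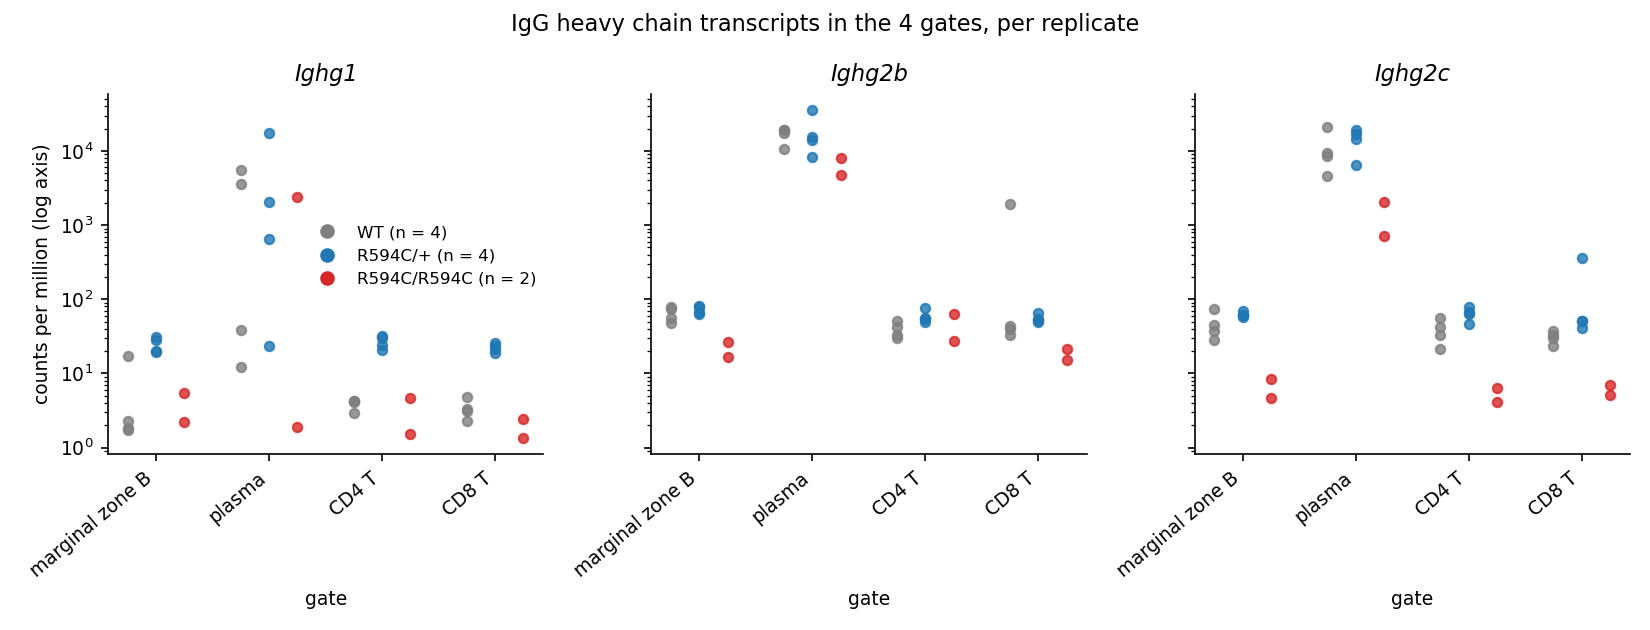
Ighg1, Ighg2b and Ighg2c in each replicate and gate, in CPM on a log axis, coloured by genotype. In CD4 T cells the R594C/R594C points of Ighg2c are at 4.11 and 6.26 CPM and the R594C/+ points at 46.6 to 78.6 CPM.

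In T cells the genes that fell, apart from a pseudogene in CD8 T cells, were again IgG transcripts, which T cells are not known to make. In CD4 T cells 2 of 9382 genes fell (0.0213%) and 0 rose in edgeR, with 547 at an unadjusted p under 0.05. The 2 calls became 47 without R594C/+ replicate 3 (11 higher and 36 lower) and 6 and 4 without R594C/R594C replicates 1 and 2. Ighg2c was at 68.0, 78.6, 63.1 and 46.6 CPM in R594C/+ and at 4.11 and 6.26 CPM in R594C/R594C, a log2 fold of -3.55 ± 0.35 (SE, adjusted p = 0.000157, edgeR). Ighg1 was at 29.8, 20.6, 31.9 and 24.4 CPM against 1.54 and 4.69 CPM, a log2 fold of -3.00 ± 0.37 (adjusted p = 0.000157). For Ighg1 the WT replicates, at 2.95 to 4.24 CPM, were as low as R594C/R594C, whereas for Ighg2c WT was at 21.7 to 55.1 CPM. In CD8 T cells 2 of 10414 genes fell (0.0192%) and 0 rose in edgeR, with 537 at an unadjusted p under 0.05, and 6 were called without R594C/R594C replicate 2. Ighg1 was at 23.3, 18.6, 25.5 and 21.1 CPM against 1.35 and 2.47 CPM, a log2 fold of -3.47 ± 0.32 (adjusted p = 2.66e-06). The second was Rpl17-ps8, a pseudogene that can share reads with its parent gene, at a log2 fold of -0.93 (adjusted p = 0.0179), and its call was lost without R594C/+ replicate 1 or 3 or without either R594C/R594C replicate. The IgG calls of both T cell gates passed in all 20 alternatives.

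The same IgG genes were read in every gate. Ighg2c fell in follicular B cells with a log2 fold of -3.14 (adjusted p = 6.99e-11, edgeR), and Ighg2b with -1.18 (adjusted p = 8.17e-06). In plasma cells, which make these transcripts, Ighg2c was at 6482, 14330, 19100 and 16930 CPM against 721 and 2027 CPM, without overlap (log2 fold -3.37, adjusted p = 0.222), and Ighg2b at 35790, 15340, 8200 and 13980 CPM against 7942 and 4759 CPM. Ighg1 varied widely in plasma cells, from 23.7 to 17320 CPM in R594C/+ and at 1.92 and 2380 CPM in R594C/R594C. Droplets take up free RNA, and 1 capture held each genotype. The part of free RNA in the B and T cell values was not tested. IgG constant genes are near copies of each other, so reads may be split between them.

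No T cell gene passed the test in the T cell gates. In CD4 T cells 12 of 12 regulatory T genes had a negative fold (median -0.40), but 0 had both R594C/R594C replicates below all R594C/+ replicates, a share of 6.47% over all genes tested. T follicular helper genes had 10 of 11 negative folds (median -0.46) and activation genes 19 of 22 (median -0.39), while naive genes had 11 of 14 positive folds (median 0.40). Icos, a costimulatory receptor of activated and helper T cells, was at 773, 589, 578 and 695 CPM against 421 and 459.6 CPM, without overlap, and missed the threshold (log2 fold -0.58, adjusted p = 0.384, edgeR). Iigp1, a GTPase induced by interferon gamma, was at 58.4, 77.4, 65.2 and 45.2 CPM against 34.4 and 23.1 CPM (log2 fold -1.10, adjusted p = 0.087). The interferon gamma list had 17 of 19 negative folds in CD4 T cells (median -0.20) and 16 of 19 in CD8 T cells (median -0.22), with 0 called in either.

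CD8 T cells had 24 of 25 negative folds among cytotoxic effector genes (median -0.39, 0 called in edgeR), and for 7 of them both R594C/R594C replicates were below all R594C/+ replicates, against 6.25% of all genes tested. Ccl5, a chemokine of memory CD8 T cells, was at 7796, 5485, 2613 and 2881 CPM against 4074 and 1546 CPM, so the groups overlapped (adjusted p = 0.986). Gzmm, a granzyme, was at 60.6, 76.7, 40.6 and 46.0 CPM against 20.0 and 21.2 CPM without overlap (adjusted p = 0.909). Cd69, an early activation marker, was at 803, 725, 606 and 669 CPM against 496 and 530.2 CPM (log2 fold -0.45, adjusted p = 0.577). Xbp1 had log2 folds of 0.19 in CD4 and 0.32 in CD8 T cells (adjusted p = 0.915 and 0.986), and Ern1 of 0.31 and 0.35 (adjusted p = 0.96 and 0.986). The XBP1s lists had medians of 0.04 and -0.05 there, with 32 and 54 of 83 folds negative and 0 called. B cell transcripts had positive folds in both T cell gates: 11 of 11 follicular B markers had a positive fold (medians 0.41 and 0.59, 0 called). In each gate 5 of the 11 lay above all R594C/+ replicates, against 6.83% of all genes tested in CD4 and 6.29% in CD8 T cells. Their sum was 1879 to 3411 CPM in R594C/+ and 3158 to 3398 CPM in R594C/R594C in CD4 T cells, and 1420 to 2480 CPM and 2562 to 2796 CPM in CD8 T cells. Their part in the results was not tested.

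Antibody tags were read from the same cells and were not used by the gates. Most called tags were lower with 2 copies: 36 of 169 (21.3%) in marginal zone B cells, 13 of 141 (9.22%) in plasma cells, 56 of 167 (33.5%) in CD4 T cells and 54 of 167 (32.3%) in CD8 T cells. All of these tags had a mean under 1000 CPM of tags in R594C/+. The isotype controls, antibodies with no target on the cells, moved with them: 8 of 9, 3 of 3, 9 of 9 and 9 of 9 tested had a negative fold, with medians of -0.89, -1.22, -1.59 and -1.17, and 2, 1, 7 and 6 were called lower. Each genotype had its own capture and antibody library. The part of the background staining in the lower tags was not tested. Without R594C/R594C replicate 2 the called lower tags became 20, 0, 49 and 42, and without R594C/R594C replicate 1 they became 32, 8, 31 and 51. Tag levels also followed the replicate number, and with that number as a block the called lower tags were 38, 10, 66 and 50 and the higher ones 7, 8, 15 and 28.

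**Figure D4:**
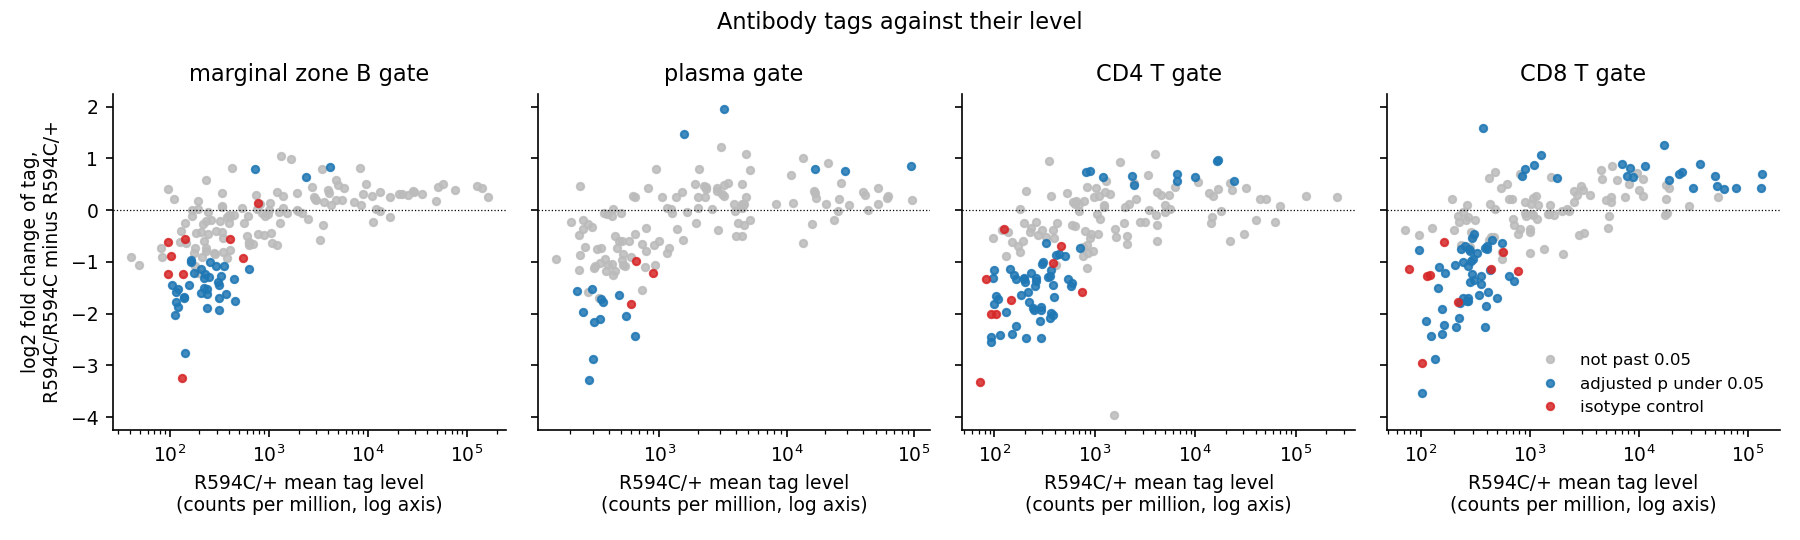
Log2 fold of each antibody tag, R594C/R594C minus R594C/+, against its mean level in R594C/+ in CPM of tags (log axis), for the 4 gates; isotype controls are red. Tags under 1000 CPM hold all called lower tags, and the isotype controls lie among them.

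Tags that were higher were mostly abundant ones. In plasma cells 5 tags rose (3.55%), led in level by MHC class II (I-A/I-E), at 73290, 101100, 105700 and 101400 CPM of tags in R594C/+ and 119300 and 225300 in R594C/R594C, a log2 fold of 0.85 ± 0.21 (SE, adjusted p = 0.019, edgeR). The 2 replicates of R594C/R594C differed from each other by more than the nearer one differed from R594C/+. In RNA, 9 of 10 MHC class II genes had a positive fold in these cells (median 0.42, 0 called). The other 4 tags were CD24, CD55, CD8a and CD8b. Without R594C/R594C replicate 2 none of the 5 was called, and without R594C/+ replicate 2, 3 or 4 the higher tags numbered 2, 2 and 1. In marginal zone B cells 3 rose (1.78%), in CD4 T cells 11 (6.59%) and in CD8 T cells 23 (13.8%). These counts depended on single replicates: in marginal zone B cells 28 were higher without R594C/+ replicate 3, in CD4 T cells 43 to 47 without WT replicate 1 or 3, R594C/+ replicate 3 or 4 or R594C/R594C replicate 1, and without R594C/R594C replicate 2 they numbered 0 in marginal zone B, 0 in CD4 T and 6 in CD8 T cells. B cell tags were among those in the T cell gates, with IgD at a log2 fold of 0.95 in CD4 and 1.27 in CD8 T cells. After TMM scaling CD8 T cells also had higher levels of their own CD8a (0.66), CD8b (0.69) and CD3 (0.64) tags. In UMIs per cell, CD8a was at 26.1 and 23.8 in R594C/R594C against 15.4 to 23.2 in R594C/+. CD8b was at 70.3 and 65.9 against 48.2 to 57.2. CD3, at 4.83 and 3.95 against 2.49 to 4.4, overlapped. The CD4 tag of CD4 T cells (0.28, adjusted p = 0.14, edgeR) and the CD21/CD35 tag of marginal zone B cells (0.26, adjusted p = 0.53) did not pass. Scaling to the library total moved the median tag from -0.25, -0.18, -0.42 and -0.19 to -0.54, -0.50, -0.63 and -0.67 in marginal zone B, plasma, CD4 T and CD8 T cells. In plasma cells it left 30 tags lower and 0 higher. It left 1, 2 and 3 tags higher in marginal zone B, CD4 T and CD8 T cells.

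The share of each gate among the barcodes of a replicate was compared with a two-sided exact permutation test, which with 2 against 4 replicates cannot give a p under 0.0667. Plasma barcodes were 2.67%, 4.21%, 1.96% and 2.89% of R594C/+ and 1.17% and 1.43% of R594C/R594C, a difference of -1.64 percentage points (exact p = 0.133, 0.533 after adjustment over the 4 gates). The groups did not overlap, and WT had a mean of 1.93% ± 0.48 (SD, n = 4). When barcodes with at least 2000 UMIs were thinned to 2000 and the others left out, the shares overlapped. They were 0.24% to 0.59% in R594C/+ and 0.32% and 0.31% in R594C/R594C. These shares rest on 7 to 22 plasma barcodes per replicate, because the gate kept its UMI minimums. Marginal zone B cells were 7.56% ± 2.27 of R594C/+ (SD, n = 4) and 5.98% ± 0.57 of R594C/R594C (SD, n = 2; exact p = 0.4). CD4 T cells were 6.95% and 6.30% (exact p = 0.467) and CD8 T cells 9.10% and 10.7% (exact p = 0.733). The direction for CD4 T cells reversed without R594C/R594C replicate 1 (0.31 points) and that for CD8 T cells without R594C/+ replicate 1 (-0.25 points).

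**Figure D5:**
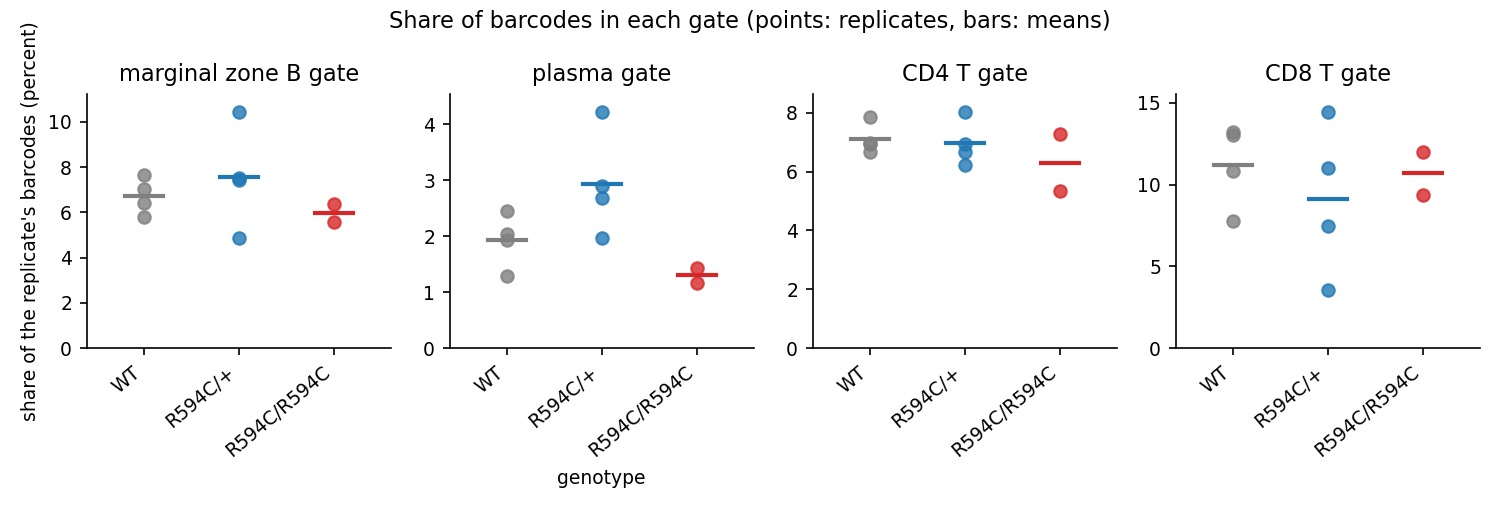
Percentage of the barcodes of each replicate that passed each gate (points, coloured by genotype), with bars at the genotype means. The 2 R594C/R594C plasma points (1.17% and 1.43%) lie below the 4 R594C/+ points (1.96% to 4.21%), while the points of the other gates overlap.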

How the data were processed

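The authors deposited raw UMI counts per gene, antibody and hashtag for 3 captures (55385 genes, 191 antibodies, 24 hashtags). Cell Ranger 5.0.0 wrote the counts, per the file headers. STAR, Seurat 3.1.4 and build mm10 are named, without a role, per the submitters' processing notes. A barcode was assigned to a replicate when its top hashtag had at least 20 UMIs and 3 times the next. Counts were summed per replicate and gate. In antibody tags, deviations of same-numbered replicates of different genotypes correlated above 0.1 in 7, 5, 6 and 8 of 8 pairs in marginal zone B, plasma, CD4 T and CD8 T cells (0.291 to 0.492 in CD8 T cells), where a number stands for 1 hashtag. No doublet caller was run beyond the hashtags, and exclusive gates, which drop barcodes in more than 1 gate or with transcripts of the other lineage, were an alternative.

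The test was edgeR 4.0.16 (R 4.3.3; robust quasi-likelihood, TMM scaling, filterByExpr, genotype only) fitted to the 10 replicates together. Adjustment was by Benjamini-Hochberg, with calls at 0.05. Genes of a gate were left out of its results. Antibodies averaging 10 or more UMIs a replicate were tested alike. CPM are TMM-scaled. Alternatives were DESeq2 1.42.0, its size factors, the library total, no filter, only the 6 R594C replicates, a replicate block, expressed sex, other hashtag and gate rules, immunoglobulin genes left out, and each replicate left out. Some of these were chosen after seeing the data. On simulated counts 43.3% of 2-fold and 90.8% of 4-fold changes were recovered in plasma cells (7871 genes), and 76.8% and 94.9% in marginal zone B cells (8998 genes). In plasma cells 97 genes were changed 2-fold and 98 were changed 4-fold, more than the 40 called in the data. Many changed genes ease the adjusted threshold, so recovery may be lower in the data. The simulations also called 12 unchanged genes in plasma cells and 9 in marginal zone B cells.

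The gates and lists were chosen with earlier results of these data known. Named genes were Ern1 and Xbp1, the 8 highest and 8 lowest called folds per gate (without receptor segments, predicted and sex-linked genes), for each list the called gene with the smallest p in each direction or, with none called, the genes with the smallest p and the highest level, and genes called in 2 gates. Some genes and antibody tags that the rules would name are not reported here. Python 3.11.15, pandas 2.3.3, scipy 1.17.1 and matplotlib 3.10.9 were used.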

Additional observations from a re-analysis of the deposited data

Results flagged for a closer look

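For 5 genes the difference between 2 copies and 1 copy departed between plasma cells and follicular B cells in the interaction test (edgeR, Benjamini-Hochberg): Dnajb9 by -0.89, Rabac1 by -0.79, Igkc by -0.47, Tmem176b by -1.62 (adjusted p = 0.0224) and Igkv6-25 by -12.02 (adjusted p = 0.0147). The last is a kappa V segment that was read mostly in R594C/+ replicate 1, at 384 CPM.

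A lone sample stood apart from the others of its group in 2 of the 80 groups examined, where chance gives about 1 in 20. Ighg1 in CD4 T cells of WT replicate 4 was low at 2.95 CPM, and Tmed3 in plasma cells of R594C/+ replicate 3 was high at 94.9 CPM. The Ighg1 value is near the floor, as it rests on few UMIs in a sum of 1055501.

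The hashtags of replicates 3 and 4 of the other genotypes, given to no R594C/R594C replicate in the labels, had 405 and 369 UMIs over the whole R594C/R594C capture. The next hashtag in number, used in no genotype, had 70 there.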

How the results depend on the processing

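The 29 called results followed across the alternatives (a gene named by rule in 1 gate each) kept their direction in every alternative run, and the other called genes were not followed. The counts of calls moved more. With no filter on low counts the genes called were 30 in marginal zone B, 141 in plasma, 57 in CD4 T and 55 in CD8 T cells. With DESeq2 they were 77, 5 and 5 in plasma, CD4 T and CD8 T cells, and with expressed sex as a term 26, 9 and 5. Exclusive gates gave 18, 7 and 5, and 17 in plasma cells with immunoglobulin genes left out too. A plasma gate without Xbp1 gave 14. The library total gave 390 in plasma cells (381 higher, 9 lower) and 4 in CD8 T cells. With only the 6 R594C replicates marginal zone B and CD8 T cells had 11 and 5, and with stricter hashtags 11 and 7. Leaving out 1 replicate gave 1 to 13, 10 to 48, 2 to 47 and 1 to 6 in marginal zone B, plasma, CD4 T and CD8 T cells.

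In RNA the replicate numbers did not pair the samples: same-numbered replicates of different genotypes had correlated deviations above 0.1 in 4, 3, 2 and 4 of 8 pairs in marginal zone B, plasma, CD4 T and CD8 T cells. With the replicate block the genes called were 19 in marginal zone B, 31 in plasma (15 of them among the 40), 11 in CD4 T and 33 in CD8 T cells.

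Antibody tags called were 63 in marginal zone B and 30 in plasma cells with the library total, 65 in marginal zone B cells with stricter hashtags, 29 and 9 in plasma cells with no filter and with exclusive gates, and 47 in CD8 T cells with only the 6 replicates. Leaving out 1 replicate gave 20 to 62, 0 to 21, 49 to 88 and 48 to 77. The comparison with follicular B cells called 5, 69, 8 and 23 genes with no filter, 3, 1 and 1 in plasma, CD4 T and CD8 T cells with exclusive gates, and 3 in CD8 T cells with stricter hashtags. Leaving out 1 replicate gave 0 to 2, 0 to 9, 0 to 4 and 0 to 5. Differences in the share of barcodes ran from -2.47 to -0.62, -1.96 to -1.21, -1.62 to 0.31 and -0.25 to 3.38 points. The causes were not tested.

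Plasma cells rested on 87 to 139 barcodes per replicate, which limits genes at low counts. Of 97 genes changed 2-fold in counts simulated at this depth, 43.3% were recovered, and 12 unchanged genes were called.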

Other observations

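Some antibody tags differed by replicate number more than by genotype. The FceRIa tag in marginal zone B cells had a mean of 7.59, 2.71, 4.63 and 9.1 UMIs per cell in WT replicates 1 to 4, 6.84, 2.96, 5.59 and 9.21 in R594C/+ replicates 1 to 4, and 6.69 and 2.68 in R594C/R594C replicates 1 and 2. In plasma cells it had 6.61, 2.76, 5.44 and 9.02 in R594C/+ and 7.57 and 2.52 in R594C/R594C. The CD357 tag in marginal zone B cells had 10.5, 5.92, 7.68 and 12.9 in R594C/+ and 9.34 and 5.22 in R594C/R594C. Replicate number in the labels stands for 1 hashtag antibody in every genotype, and no reason for this order was tested.

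In plasma cells, 30 cytosolic ribosomal protein genes were tested, of which 26 had a positive fold with 2 copies (median 0.12, 0 called), and 15 had both R594C/R594C replicates above all R594C/+ replicates (10.0% of all genes tested did). In CD4 T cells all 30 had a positive fold (median 0.21, 0 called), while in marginal zone B cells 22 had a negative one (median -0.07, 0 called).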
